A study of Mus musculus with 48 samples.

Results

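The carboxylesterase (Ces) genes of families 1 and 2 were described in the liver, subcutaneous white adipose tissue (WAT), skeletal muscle and the villi of the duodenum, jejunum and ileum of mice 9 days after Roux-en-Y gastric bypass (RYGB) or sham surgery. The members were the rows with the symbols Ces1b, Ces1c, Ces1d, Ces1e, Ces1f, Ces1g, Ces2a, Ces2b, Ces2c and Ces2e, 1 row for each Ensembl identifier, which makes 10 of the 15541 genes listed in the 6 tables. The symbols were selected on earlier differences between the RYGB and sham groups in these same libraries, so the differences given here are a description and support nothing on their own. Of the 20 carboxylesterase genes of the GENCODE M21 annotation, 14 were listed in at least 1 table, and the 4 listed genes that are no members (Ces2g, Ces2h, Ces3a and Ces3b) are given at the end for completeness.

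All mice were male, of the strain C57Bl6 and diet-induced obese on a high fat diet, and they received RYGB or sham surgery followed by a liquid elemental diet. RYGB joins a small gastric pouch to the jejunum, so that food no longer passes through the duodenum or most of the stomach. Liver, WAT and muscle had 4 RYGB and 4 sham libraries each, duodenum and jejunum 3 RYGB and 4 sham libraries each, and ileum 5 of each, which gave 48 libraries. The mice were killed in the morning after fasting, and the intestinal villi were scraped off after a short time in cold EDTA. The labels give neither the age of the mice nor whether the sham mice were matched for food intake or weight.

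Carboxylesterases are serine hydrolases, mostly held in the lumen of the endoplasmic reticulum, that cleave esters, amides and thioesters. They activate or clear many drugs and other foreign compounds, and several also act on triglycerides, diglycerides and cholesteryl esters. Liver and intestinal epithelium are their best known sites, and in the mouse both families have expanded into clusters of tandem genes that are close in sequence.

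The 6 family 1 members lie on chromosome 8 of GRCm38 on the minus strand, between 93056728 and 93337308, and the 4 family 2 members on the same chromosome on the plus strand, between 104734003 and 104934672. Transcripts of the members share stretches with neighbouring genes and pseudogenes. Of all 50-base stretches of the longest coding transcript, 42.2% in Ces2c, 22.2% in Ces2a, 17.0% in Ces1c, 11.6% in Ces1b and 9.56% in Ces2b were also found in a transcript of another gene. The share was between 1.28% and 3.36% in the other 5 members. The main partners were the pseudogene Ces2d-ps and the predicted genes Gm8798 and Gm6831 for Ces2c, and Gm7208 for Ces2a. Those of Ces2b were Ces2c, Ces2d-ps and Gm8798, and Ces1b and Ces1c were the main partners of each other. The read length and the handling of reads with several matches are not given in the sources used here. Values of Ces2c, Ces2a, Ces2b, Ces1b and Ces1c are uncertain to the extent that such reads were dropped, split or counted for a partner. How far low Ces2b values hold reads of Ces2c was not tested.

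Promoter sequences from RefSeq (GRCm38.p6, from 250 bases before to 50 bases after the start site) were at hand for 7 of the 10 members, that is Ces1b, Ces1c, Ces1e, Ces1g, Ces2a, Ces2c and Ces2e. The pairs Ces1b with Ces1c and Ces2a with Ces2c are printed because each pair lay on the same side of sham in liver or in gut. The first pair is read on the minus strand, and capitals mark the longest run of bases that both hold, which is 58 bases long. This run was found in 3 of 32851 promoters searched on both strands, that is 0.00913%, and all of them belonged to Ces1b or Ces1c.
Ces1b, chr8:93079968-93080267: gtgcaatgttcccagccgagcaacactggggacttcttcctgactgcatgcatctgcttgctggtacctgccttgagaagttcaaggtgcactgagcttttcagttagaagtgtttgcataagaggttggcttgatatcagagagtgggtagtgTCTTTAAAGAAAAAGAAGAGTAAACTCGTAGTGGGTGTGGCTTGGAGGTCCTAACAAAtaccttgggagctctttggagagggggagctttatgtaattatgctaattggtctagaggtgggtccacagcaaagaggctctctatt
Ces1c, chr8:93131234-93131533: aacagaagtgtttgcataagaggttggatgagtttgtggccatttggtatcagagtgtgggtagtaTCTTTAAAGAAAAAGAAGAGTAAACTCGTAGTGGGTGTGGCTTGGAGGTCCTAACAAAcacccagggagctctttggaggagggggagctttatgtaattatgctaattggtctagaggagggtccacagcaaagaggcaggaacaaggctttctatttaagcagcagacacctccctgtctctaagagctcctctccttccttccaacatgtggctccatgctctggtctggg
The second pair is read on the plus strand, and capitals again mark the longest shared run, here 11 bases, which 0.0335% of all promoters hold.
Ces2a, chr8:104733753-104734052: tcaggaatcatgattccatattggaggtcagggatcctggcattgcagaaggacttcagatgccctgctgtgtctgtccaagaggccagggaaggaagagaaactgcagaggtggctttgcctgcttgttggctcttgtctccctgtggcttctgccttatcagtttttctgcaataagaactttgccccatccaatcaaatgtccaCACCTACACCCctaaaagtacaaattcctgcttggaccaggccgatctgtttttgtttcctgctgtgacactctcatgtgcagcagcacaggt
Ces2c, chr8:104846818-104847117: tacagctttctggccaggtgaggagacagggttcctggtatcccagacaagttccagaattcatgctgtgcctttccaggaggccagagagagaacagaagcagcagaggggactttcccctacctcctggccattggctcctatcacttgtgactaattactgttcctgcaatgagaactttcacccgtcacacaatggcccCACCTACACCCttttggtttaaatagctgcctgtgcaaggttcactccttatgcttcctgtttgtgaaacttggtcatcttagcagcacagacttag
The run begins 43 bases before the start site in Ces2a and 47 bases before it in Ces2c. Ces2a shared a longer run of 17 bases with Ces2e. Between a family 1 and a family 2 promoter the longest shared run was 7 to 10 bases. On either strand, the letters TATAAA of a TATA box were found in 1 of the 7 promoters (Ces1g) and in 13.6% of all promoters. The letters AGGTCA, a core motif of nuclear receptors, were found in 1 (Ces2a) and in 16.3% of all, the letters GTTAAT, a core motif of HNF1, in 0 and in 7.1% of all, and the letters CAAAGTCCA of an HNF4A site in 0 and in 0.475% of all. No motif contains another, and a missing match says only that the letters are not in this window.

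The values are CPM (read counts of a gene scaled to the library's total) as deposited, rounded to 0.1, and the columns summed to between 925122 and 998777. The depth of the libraries is unknown. Every listed gene reached 1 CPM in 3 or more libraries of duodenum or jejunum, 4 or more of liver, WAT or muscle and 5 or more of ileum, and a member that is not listed in a tissue has no value there. The labelled tissues were checked against their markers. The hepatocyte markers summed to at least 80942 CPM in liver, the skeletal muscle markers to at least 68824 CPM in muscle, and the enterocyte markers to at least 12039 CPM in the gut segments. The libraries labelled ileum carried little of the ileal markers Fabp6 (0 to 50.5 CPM) and Slc10a2 (0.2 to 53.7 CPM), while Gata4, a factor of the proximal small intestine, was at 105.0 to 183.2 CPM, against 122.0 to 239.1 CPM in jejunum. They are called ileum here by their label. In every tissue the samples are bulk tissue, so that fewer cells of a type and less RNA per cell cannot be told apart.

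In sham mice family 1 was the larger family in liver and WAT, and family 2 in the gut (plot of sham levels per kilobase). Levels of different genes were compared as CPM per kilobase of exon, and tissues are only set side by side, because their tables were normalized separately. In sham liver the leading member was Ces1c, which encodes a carboxylesterase of mouse blood plasma, at 864.7 ± 56.8 CPM per kb (SD, n = 4). The next, Ces1d, a triglyceride hydrolase of the endoplasmic reticulum, was at 153.9 ± 44.1, and the ranges did not overlap. Ces1g, Ces2e and Ces1f followed at 109.5, 103.7 and 101.3 CPM per kb, and their ranges overlapped. Ces1e, also known as egasyn, which holds beta-glucuronidase in the endoplasmic reticulum, was at 58.9, Ces1b at 44.1, Ces2a at 41.2 and Ces2c at 6.41 CPM per kb. Ces2b was not listed in liver.

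In the sham gut Ces2e led in every segment, with 640.4 ± 133.0 CPM per kb in duodenum, 786.4 ± 166.7 in jejunum (SD, n = 4 each) and 628.8 ± 93.9 in ileum (SD, n = 5). The ranges of the segments overlapped. The other family 2 members were lower from duodenum to ileum. Mean CPM per kb was 434.6, 277.8 and 62.7 for Ces2a, 398.4, 193.8 and 71.2 for Ces2c, and 98.7, 20.2 and 1.02 for Ces2b. For each of these 3 genes the ranges of neighbouring segments overlapped, while those of duodenum and ileum did not. Of family 1 only Ces1d, Ces1e, Ces1f and Ces1g were listed in the gut, with Ces1f leading at 71.5, 31.9 and 7.93 CPM per kb. Ces1b and Ces1c were listed in liver only.

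Ces1d was the only member listed in all 6 tissues. Its sham level was 254.8 CPM per kb in WAT, 153.9 in liver and 16.6 in muscle, and in the gut it was 3.97 (duodenum), 3.11 (jejunum) and 0.574 (ileum). The ranges of WAT and liver overlapped, as did those of duodenum and jejunum and of jejunum and ileum. WAT also listed Ces1f at 31.2 and Ces2e at 0.0741 CPM per kb.

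**Figure D1:**
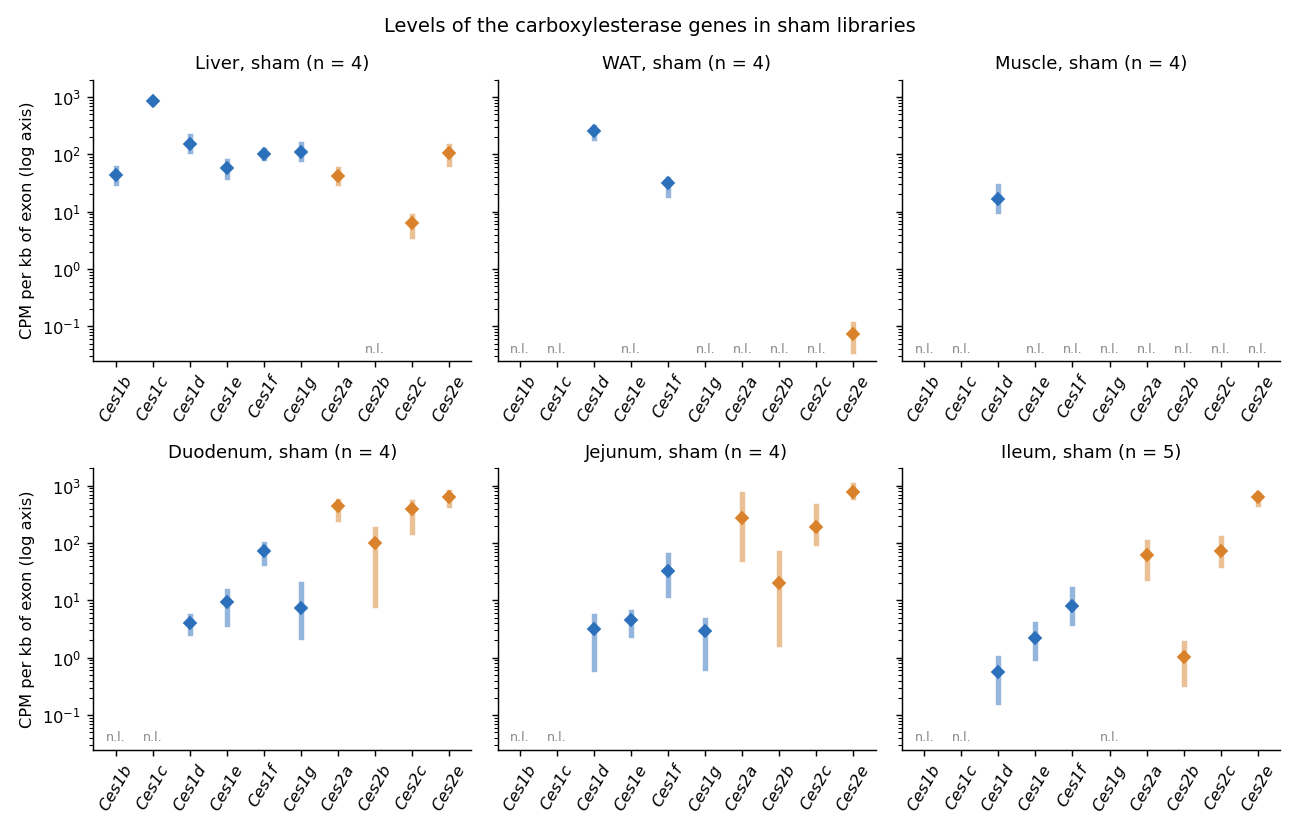
Sham levels of the 10 members in 6 tissues as CPM per kilobase of exon on a log axis; diamonds are means, bars run from the lowest to the highest library, blue is family 1, orange is family 2, and n.l. marks a gene that the table does not list. Ces1c leads in liver (864.7), Ces1d in WAT (254.8) and Ces2e in all 3 gut segments (628.8 to 786.4).

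In liver, Ces1b was higher and Ces1f and Ces2a were lower after RYGB, and the remaining 6 listed members did not meet the criteria of a differentially expressed gene (DEG), which are an adjusted p-value under 0.05 over all genes tested and a fold change of at least 1.5. Over all 11807 liver genes tested, 5.79% were DEGs with higher and 1.29% with lower expression in the RYGB group, against 1 and 2 of the 9 members. Since the members were chosen by such differences, nothing is read from these shares. Over all liver genes there were 684 higher and 152 lower DEGs, and 437 and 234 with libraries scaled by their median ratios. The median log2 fold change (RYGB minus sham, on log2(CPM + 1)) was -0.53 over the 9 members and 0.13 over all genes.

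Ces1b was at 245.0, 231.1, 161.2 and 176.6 CPM in the RYGB libraries and at 82.8, 89.1, 112.7 and 61.6 CPM in the sham libraries. Every RYGB library was above every sham library, as for 13.4% of all liver genes. The log2 fold change was 1.23 ± 0.19 (SE; adjusted p = 0.0062), and it stayed a DEG without any single library. Its neighbour Ces1c was at 3493.8, 2260.1, 2602.0 and 2687.6 CPM after RYGB and at 2137.2, 1855.8, 2098.3 and 1943.5 CPM after sham. The groups of Ces1c did not overlap either, but the log2 fold change of 0.44 ± 0.17 was under the threshold and the adjusted p was 0.121.

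Ces2a, which acts on diglycerides and other esters, was at 51.7, 23.1, 32.2 and 48.7 CPM in RYGB liver and at 94.8, 73.4, 91.9 and 128.9 CPM in sham liver. Every RYGB library was below every sham library, as for 3.05% of all genes. The log2 fold change was -1.34 ± 0.25 (adjusted p = 0.0125), and this call also held without any single library. Ces1f was at 256.4, 143.5, 237.8 and 177.4 CPM against 282.6, 307.8, 385.0 and 355.2 CPM, again without overlap. Its log2 fold change was -0.73 ± 0.18 (adjusted p = 0.0365). The Ces1f call was lost when any library other than RYGB replicate 1 was left out, with adjusted p between 0.0565 and 0.0808.

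The other liver members overlapped between the groups. The log2 fold changes were -0.69 ± 0.23 for Ces1e, -0.55 ± 0.19 for Ces1d, -0.53 ± 0.23 for Ces2c, -0.48 ± 0.19 for Ces2e and 0.40 ± 0.20 for Ces1g, with adjusted p between 0.0852 and 0.24. Ces1d was at 212.0 to 300.0 CPM after RYGB and 271.8 to 497.7 CPM after sham, and the highest values were those of sham replicates 3 and 4. Ces1e met the criteria only without RYGB replicate 1 (log2 fold change -0.84, adjusted p = 0.039) and Ces2e only without sham replicate 1 (-0.67, adjusted p = 0.0456).

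Ratios within a library do not depend on scaling between libraries. The ratio of Ces1b to Ces1f CPM was 0.678 to 1.61 in the RYGB libraries and 0.173 to 0.293 in the sham libraries. Since Ces1b lay wholly above and Ces1f wholly below sham by CPM, this ratio had to separate the groups and adds no support. The CPM of all family 1 members together was 3301 to 4780 after RYGB and 2867 to 3623 after sham, and these ranges overlapped. Family 2 together was at 224.8 to 274.3 CPM after RYGB and 289.0 to 465.6 CPM after sham, with no overlap. Of the 5 hepatocyte markers, 1 was a DEG (Serpina1c, log2 fold change -0.97), and their sum overlapped between the groups (80942 to 115069 against 81922 to 97586 CPM). Most of that sum was Alb, with a mean of 84762 CPM after RYGB and 71463 after sham, while Apoa2, Ttr and Fgb had log2 fold changes of -0.39, -0.42 and -0.39 and were no DEGs. The 3 listed macrophage markers (Cd68, Csf1r and C1qa, of 4) summed to 218.9 to 481.5 CPM after RYGB and 129.3 to 210.8 CPM after sham, with no overlap, and the keratinocyte list (Dsp and Krt10, of 4) to 69.3 to 98.1 and 53.7 to 66.2 CPM. Most of the keratinocyte sum was Dsp, which the ileal libraries also held, at 380.9 to 984.8 CPM, while Krt5 and Krt14 were not listed in liver. Of the 5 acinar genes only Cela1 was listed, at 10.0 to 12.2 CPM after RYGB and 25.5 to 38.0 CPM after sham. The part of these cells in the liver values was not tested.

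**Figure D2:**
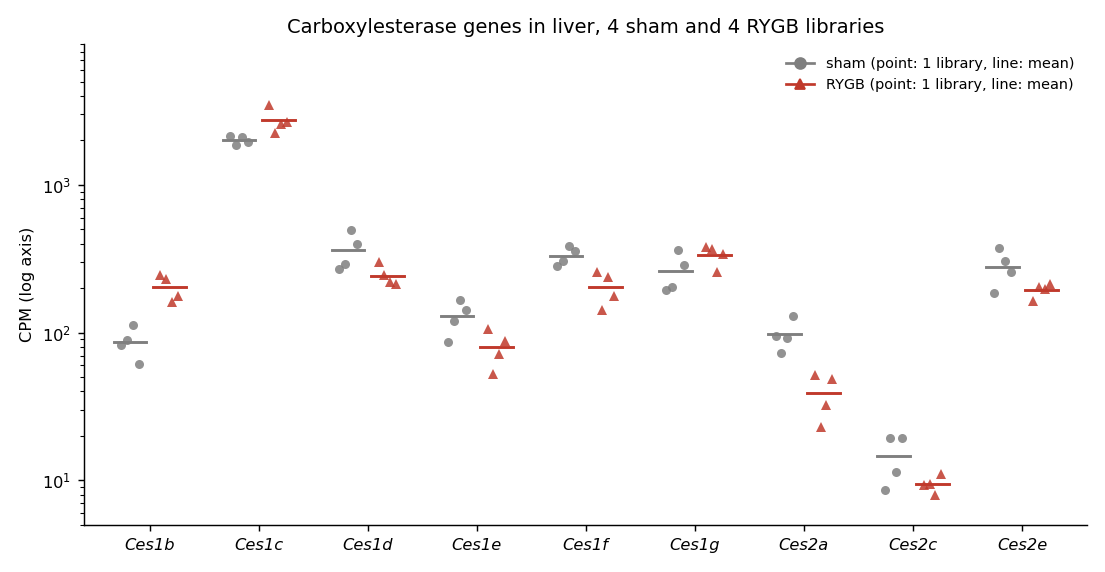
CPM of the 9 members listed in liver on a log axis; each point is 1 library (grey circles sham, red triangles RYGB) and each line a group mean. The groups do not overlap for Ces1b and Ces1c (RYGB above) or for Ces1f and Ces2a (RYGB below).

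In WAT, the abundant members overlapped between the groups and only the trace member Ces2e was a DEG. Ces1d, the leading carboxylesterase of fat, was at 733.9, 591.6, 614.6 and 355.4 CPM after RYGB and at 666.8, 596.5, 699.6 and 452.0 CPM after sham. The log2 fold change was -0.10 with a 95% confidence interval from -0.65 to 0.44. Ces1f was at 71.9 to 140.8 CPM after RYGB and 63.6 to 123.0 CPM after sham, with a log2 fold change of 0.07 that turned to -0.04 when libraries were scaled by their median ratios. The groups overlapped for both genes.

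Ces2e in WAT was at 1.7, 2.0, 3.9 and 4.7 CPM in the RYGB libraries and at 0.2, 0.2, 0.1 and 0.3 CPM in the sham libraries. All RYGB libraries were above all sham libraries, and the log2 fold change was 1.69 ± 0.25 (adjusted p = 0.00251). The gene passed the table's own minimum and the mean of 1 CPM through the RYGB libraries alone, so it had to differ to be tested, and neither the call nor the separation of the groups is support for a change. The sham values are 1 to 3 rounding steps of the table, and the log2 fold change was 3.33 with a pseudocount of 0.1 in place of 1. The background in WAT was wide, with 14.9% of 13379 genes higher and 9.23% lower DEGs, 26.1% of genes wholly above sham and 15% wholly below. There were 1996 higher and 1235 lower DEGs, and 1642 and 1668 with median ratio scaling. The median log2 fold change over the 3 members was 0.07, against 0.11 over all genes. The B cell markers Ms4a1, Cd79a, Cd79b and Cr2 moved with Ces2e, at 507.9 to 1254.6 CPM in sum after RYGB and 4.0 to 9.2 after sham, and 4 of 4 were DEGs. The 6 adipocyte markers summed to 8150 to 16499 CPM after RYGB and 16083 to 23707 after sham, and keratinocyte markers reached 143.8 CPM in sham. Of the enterocyte markers, 4 of 5 were listed, and they summed to 30.1 to 44.4 CPM after RYGB and 34.7 to 87.9 CPM after sham. Among them Cdh17 was at a mean of 2.53 CPM after RYGB and 0.15 after sham. Like Ces2e, it passed the minimum through the RYGB libraries alone. The groups overlapped for Vil1, Epcam and Lgals4, the last at 27.0 to 32.5 CPM after RYGB and 32.1 to 82.1 CPM after sham. The part of these cells in the Ces2e value was not tested.

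In muscle, Ces1d was the only member listed. It was at 43.8, 27.2, 25.2 and 20.0 CPM in the RYGB libraries and at 35.2, 31.2, 66.3 and 24.4 CPM in the sham libraries. The groups overlapped, and the log2 fold change was -0.38 with a 95% confidence interval from -1.06 to 0.30. By limma's test 0% of the 11966 muscle genes were DEGs in either direction (1746 had an unadjusted p under 0.05), 4.77% lay wholly above sham and 2.62% wholly below. With lane as a covariate the log2 fold change of Ces1d was 0.06, and without sham replicate 3 it was -0.10. The 6 adipocyte markers summed to 218.1 to 485.8 CPM after RYGB and 149.3 to 1161.0 CPM after sham. Sham replicate 3, the highest library for Ces1d, also had the most Adipoq (119.0 CPM). Among the RYGB libraries, replicate 1 was the highest for both Ces1d and Adipoq (41.1 CPM). The part of fat cells in the Ces1d value was not tested.

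In the gut, Ces2a, Ces2b and Ces2c were lower than sham in every RYGB library of the duodenum and higher in every RYGB library of the ileum, while the Ces2e differences were far smaller in both (plot of family 2 in the villi). In the duodenum, the limb that food bypasses, Ces2a was at 315.3, 141.2 and 89.5 CPM after RYGB and at 621.3, 1300.0, 1183.0 and 997.0 CPM after sham. Ces2b was at 9.6, 10.9 and 5.7 CPM after RYGB and at 596.1, 376.3, 345.5 and 28.1 CPM after sham. Sham replicate 4 stood apart from the other sham libraries, but was still above all RYGB libraries. Ces2c, a triglyceride and diglyceride hydrolase of enterocytes, was at 202.1, 255.3 and 193.1 CPM after RYGB and at 1180.3, 1010.3, 1113.5 and 357.7 CPM after sham, and sham replicate 4 was again the lowest sham library.

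The log2 fold changes in duodenum were -2.63 ± 0.42 for Ces2a, -4.53 ± 0.92 for Ces2b and -1.94 ± 0.40 for Ces2c. None of them met the criteria of a DEG, with adjusted p of 0.0962, 0.126 and 0.132. Over the 10850 duodenal genes, 0% were DEGs with higher and 0.00922% with lower expression (a single gene, Ephx1), while 12.7% lay wholly above sham and 2.93% wholly below, as 3 of the 8 members did. Without sham replicate 4, all 3 genes met the criteria, with log2 fold changes of -2.63, -5.50 and -2.35 and adjusted p of 0.0238, 0.00089 and 0.00335. The gain was not particular to them, since 532 of 10854 genes were then DEGs with higher and 225 with lower expression. That library was also low in Slc40a1, the iron exporter of the proximal gut, at 26.9 CPM, against 577.7 to 2468.1 CPM in the other sham libraries, and RYGB replicate 1 was at 25.2 CPM.

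Ces2e did not follow its neighbours in duodenum. It was at 1378.0, 1570.5 and 1293.1 CPM after RYGB and at 1237.9, 1735.8, 1849.0 and 2090.8 CPM after sham, so the groups overlapped, with a log2 fold change of -0.27 ± 0.23. The family 1 members Ces1d, Ces1e, Ces1f and Ces1g overlapped as well, with log2 fold changes from -0.03 to 0.45. Ces1f was at 170.8 to 291.0 CPM after RYGB and 149.3 to 316.7 CPM after sham. The median over the 8 members was -0.15 and over all genes 0.12. The enterocyte markers were at 13086 to 13416 CPM in sum after RYGB and 12039 to 15694 after sham. The 3 listed markers of the proximal small intestine (Fabp1, Slc40a1 and Gata4) summed to 4552 to 5510 CPM after RYGB and 5455 to 13877 CPM after sham, and these ranges overlapped. Most of this was Fabp1, an intracellular fatty acid binding protein, at 3918.5 to 5317.7 CPM after RYGB and 5277.8 to 13085.1 CPM after sham, with sham replicate 4 the lowest sham library (log2 fold change -1.01, adjusted p = 0.216). Gata4 was at 167.3 to 246.8 CPM after RYGB and 136.0 to 233.2 CPM after sham, and 0 of the 3 markers were DEGs. The listed crypt markers (3 of 4) summed to 65.9 to 175.0 CPM after RYGB and 22.3 to 45.9 after sham. Of the 5 acinar genes only Cela1 was listed, at 517.5 CPM in RYGB replicate 3, 1978.8 in sham replicate 1, 4817.2 in sham replicate 2 and at most 11.7 elsewhere. The part of gut position and of crypt or pancreatic cells in the Ces2 values was not tested.

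In the ileum Ces2a was at 943.1, 1389.5, 437.8, 498.6 and 513.0 CPM after RYGB and at 71.4, 249.1, 57.8, 187.4 and 174.3 CPM after sham. Ces2c was at 636.5, 980.6, 481.1, 505.0 and 390.2 CPM after RYGB and at 137.0, 278.3, 105.8, 96.3 and 200.9 CPM after sham. RYGB replicates 1 and 2 were the highest for both genes. Ces2b was at 74.4, 180.6, 13.2, 12 and 13.2 CPM after RYGB and at 3.1, 6.1, 1.2, 1.4 and 5.5 CPM after sham. The same RYGB replicates 1 and 2 stood well above the other RYGB libraries, and those still lay above all sham libraries.

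The log2 fold changes in ileum were 2.41 ± 0.43 for Ces2a (adjusted p = 0.0107), 3.03 ± 0.70 for Ces2b (adjusted p = 0.0262) and 1.91 ± 0.31 for Ces2c (adjusted p = 0.00878), and all 3 were DEGs. Of the 10735 ileal genes, 1.64% were DEGs with higher and 4.42% with lower expression, and 2.42% lay wholly above and 6.92% wholly below sham, against 3 higher DEGs and 4 genes wholly above among the 7 members. Over all ileal genes there were 176 higher and 474 lower DEGs, and 329 and 372 with median ratio scaling. The Ces2b call was lost without RYGB replicate 1, sham replicate 1, sham replicate 3 or sham replicate 4, with adjusted p between 0.0537 and 0.0695. All RYGB libraries of ileum were run on lane 1 and the sham libraries on lanes 2 and 3, and the effects of lane and of surgery cannot be told apart there.

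Ces2e in ileum was at 2404.4, 2524.3, 2186.1, 2335.8 and 2372.0 CPM after RYGB and at 1755.8, 1898.9, 1276.2, 1670.8 and 1883.3 CPM after sham. Every RYGB library was above every sham library, but the log2 fold change of 0.49 ± 0.14 (adjusted p = 0.047) was under the threshold of 1.5-fold. With libraries scaled by their median ratios it was 0.60 and Ces2e met the criteria. When any 1 of the 10 libraries was left out the adjusted p was 0.0521 to 0.111, past the threshold in none of these fits. The family 1 members Ces1d, Ces1e and Ces1f were low and overlapped, with log2 fold changes of -0.31, -0.79 and -0.38. The median was 0.49 over the 7 members and -0.09 over all genes.

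Some markers of gut position also differed in the ileum. The listed markers of the proximal small intestine (Fabp1, Slc40a1 and Gata4) summed to 3902 to 8646 CPM after RYGB and 1314 to 4142 CPM after sham. These ranges overlapped, and most of the sum was Fabp1, a DEG (log2 fold change 1.25). Gata4 was at 105.0 to 183.2 CPM after RYGB and 122.4 to 154.5 CPM after sham, and Slc40a1 at 0.7 to 2.1 and 1.4 to 4.4 CPM. The median log2 fold change of these 3 markers was -0.08, against -0.09 over all genes. The 4 ileal markers summed to 623.1 to 880.7 CPM after RYGB and 320.0 to 867.1 after sham, and of these Slc10a2 and Slc51b were DEGs with higher expression (2.30 and 0.74). Their part in the Ces2 values was not tested. For a sense of size, the RYGB ileum held Ces2a at 437.8 to 1389.5 CPM and the sham duodenum at 621.3 to 1300.0 CPM, in tables that were normalized separately.

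**Figure D3:**
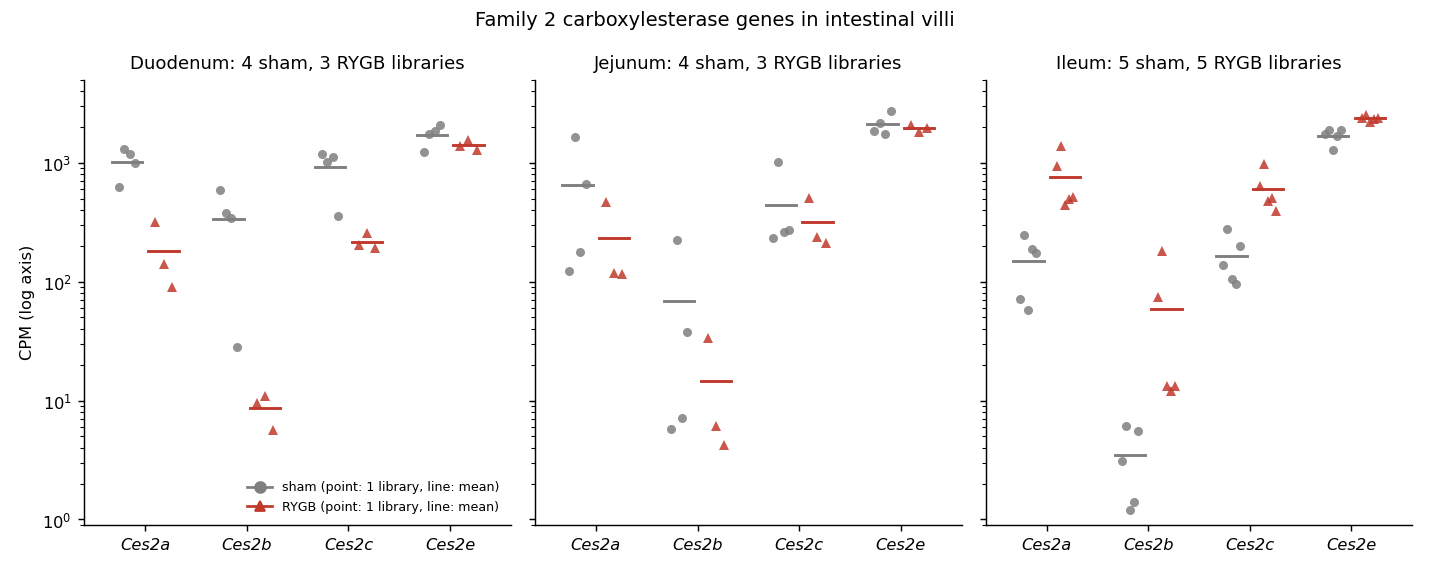
CPM of Ces2a, Ces2b, Ces2c and Ces2e in the villi of duodenum, jejunum and ileum on a log axis; each point is 1 library (grey circles sham, red triangles RYGB) and each line a group mean. Ces2a, Ces2b and Ces2c lie wholly below sham in duodenum and wholly above sham in ileum, and they overlap in jejunum.

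In the jejunum the same 3 genes varied more between the sham libraries than between the groups. Ces2a was at 464.1, 118.4 and 116.8 CPM after RYGB and at 123.4, 1659.1, 178.6 and 659.8 CPM after sham. Ces2b was at 33.3, 6.1 and 4.2 CPM after RYGB and at 5.8, 224.7, 7.1 and 37.6 CPM after sham, a 38.7-fold range among the sham libraries. Ces2c was at 505.6, 238.9 and 211.9 CPM after RYGB and at 232.7, 1017.0, 262.1 and 270.0 CPM after sham. Sham replicate 2 was the highest library for all 3 genes, and among the RYGB libraries replicate 1 was the highest for all 3. Sham replicate 2 also had the most Fabp1 (14000 CPM) and Slc40a1 (21.1 CPM, against 0.7 to 7.1 CPM elsewhere) of the jejunal libraries.

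The log2 fold changes in jejunum were -1.08 ± 0.83 for Ces2a, -1.28 ± 1.12 for Ces2b and -0.29 ± 0.50 for Ces2c. The 95% confidence interval of Ces2b ran from -3.77 to 1.20, so that a several-fold decrease remained within it. Without sham replicate 2 the value of Ces2c turned to 0.21. Ces2e was at 1831.8 to 2083.2 CPM after RYGB and 1735.7 to 2742.3 CPM after sham, with a log2 fold change of -0.10 ± 0.21.

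Ces1e was the only DEG among the 8 members listed in jejunum, at 2.6, 3.1 and 5.0 CPM after RYGB and 5.5, 12.7, 8.2 and 14.0 CPM after sham. Every RYGB library was below every sham library, and the log2 fold change was -1.24 ± 0.32 (adjusted p = 0.0393). The call was lost without RYGB replicate 1, RYGB replicate 2, sham replicate 2, sham replicate 3 or sham replicate 4, with adjusted p between 0.0738 and 0.127. Of 10854 jejunal genes, 4.62% were DEGs with higher and 5.13% with lower expression, 9.75% lay wholly above sham and 12.5% wholly below. The listed crypt markers summed to 45.0 to 105.3 CPM after RYGB and 9.1 to 37.0 CPM after sham. Most of that sum was Lyz1, at 41.0 to 98.0 CPM after RYGB and 6.8 to 22.7 CPM after sham. The groups overlapped for Mki67 (2.2 to 14.2 and 2.1 to 9.4 CPM) and for Olfm4 (1.8 to 15.2 and 0.2 to 4.9 CPM). The part of crypt cells in the Ces1e value was not tested.

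Ces1g, a liver carboxylesterase with a role in lipid handling, was at 0.5, 1.9 and 1.7 CPM in RYGB jejunum and at 6.3, 9.6, 1.6 and 11 CPM in sham jejunum. Sham replicate 3 lay among the RYGB libraries, and the log2 fold change was -1.62 ± 0.49 (adjusted p = 0.0655). Without sham replicate 3 it was -2.10 and met the criteria (adjusted p = 0.00863). Ces1d and Ces1f overlapped, with log2 fold changes of -0.60 and -0.27. The median over the 8 members was -0.84, and over all genes -0.04.

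The make-up of family 2 within a library does not depend on any scaling between libraries. In duodenum Ces2a, Ces2b and Ces2c together made up 30.5%, 23.0% and 20.5% of the family 2 CPM per kb in the RYGB libraries and 67.5%, 63.1%, 61.4% and 43.1% in the sham libraries, the rest being Ces2e. In ileum they made up 44.0%, 53.3%, 33.0%, 33.4% and 30.8% after RYGB and 12.3%, 24.5%, 13.0%, 16.4% and 18.9% after sham. The groups were apart in both segments, in opposite directions. Ces2a, Ces2b and Ces2c each lay wholly apart from sham by CPM there, so the shares restate those values and add no support. In jejunum the shares were 35.6%, 18.7% and 16.5% after RYGB and 18.4%, 60.2%, 23.0% and 28.7% after sham, and in liver, without Ces2b, 15.6% to 30.0% after RYGB and 22.3% to 39.9% after sham, with overlap in both. The CPM of all members together was 1796 to 2253 in RYGB duodenum and 3805 to 4853 in sham duodenum. In ileum it was 3130 to 5092 after RYGB and 1463 to 2472 after sham.

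**Figure D4:**
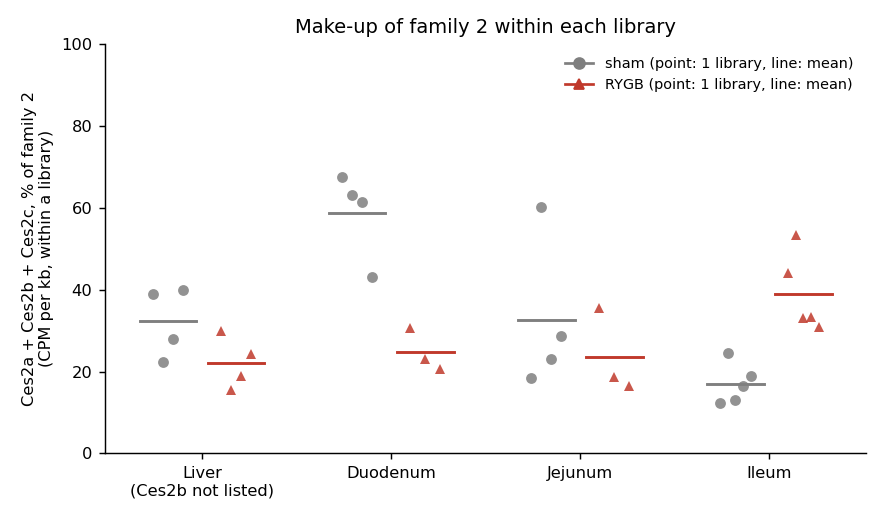
Share of Ces2a, Ces2b and Ces2c in the family 2 members, in % of CPM per kb within each library, for liver and the gut segments; points are libraries (grey circles sham, red triangles RYGB) and lines group means. After RYGB the share lies below all sham libraries in duodenum (20.5% to 30.5%) and above all of them in ileum (30.8% to 53.3%).

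Across tissues, the direction of a member was not fixed. Ces2a was wholly below sham in liver and duodenum and wholly above it in ileum, and Ces2e was wholly above sham in ileum and overlapped in liver, duodenum and jejunum. The separation of Ces2e in WAT is left aside, since the gene passed the minimum there through the RYGB libraries alone. Ces1e was wholly below sham in jejunum alone, and Ces1d overlapped in all 6 tissues. The tissues were not compared by a test.

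**Figure D5:**
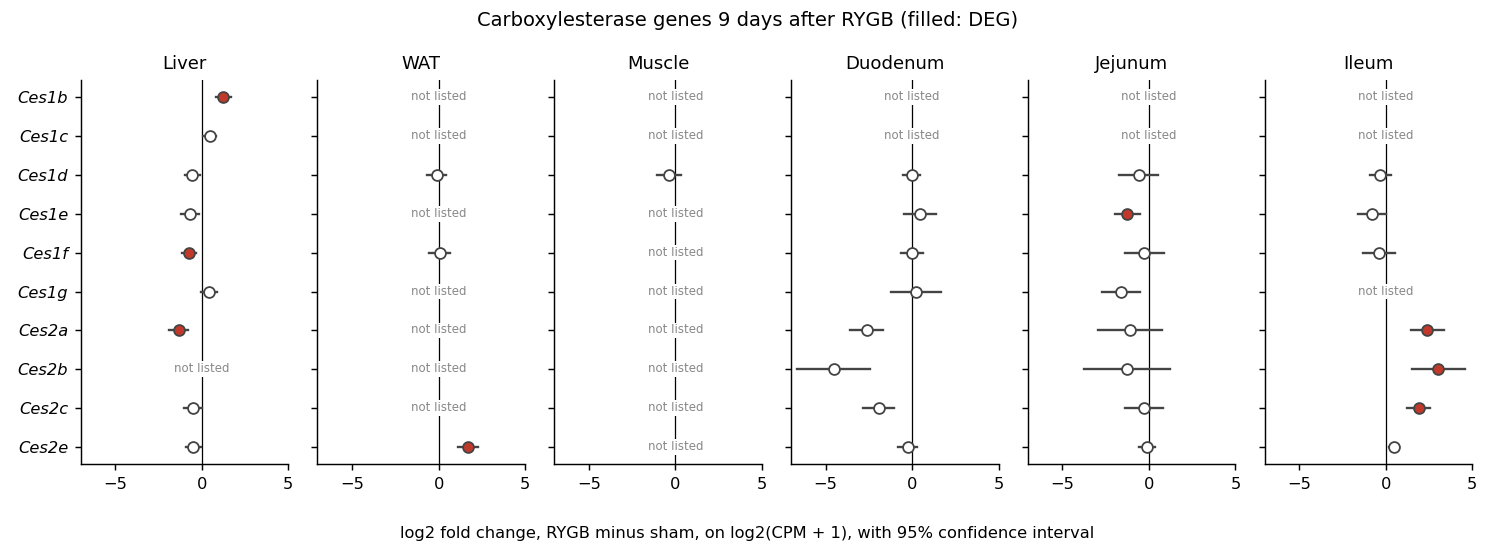
Log2 fold change (RYGB minus sham, on log2(CPM + 1)) of each member by tissue with its 95% confidence interval; filled circles are DEGs and open circles are not. DEGs were Ces1b, Ces1f and Ces2a in liver, Ces2e in WAT, Ces1e in jejunum and Ces2a, Ces2b and Ces2c in ileum. In WAT Ces2e passed the minimum through the RYGB libraries alone, so its call is no support for a change.

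Of the other carboxylesterases, Ces3b in liver was at 91.1, 25, 49.5 and 96.7 CPM after RYGB and at 273.8, 251.1, 314.0 and 317.5 CPM after sham. This is a DEG with a log2 fold change of -2.30 ± 0.35 (adjusted p = 0.0057). Ces3a, the abundant liver form of the same family, overlapped at 1057.3 to 1583.6 against 1269.4 to 2031.5 CPM. Ces2g, listed in all tissues but muscle, had log2 fold changes from -0.37 to 0.40, and Ces2h, listed in the 3 gut segments, from -0.66 to 0.14. Neither was a DEG in any of them.

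Other genes of lipid hydrolysis, lipid assembly and drug metabolism were counted from lists. These were chosen with earlier results of these data known, so the counts are a description only. In liver, 2 of 14 lipid hydrolases were higher and 2 lower, where 5.79% of all genes were higher and 1.29% lower DEGs. The higher ones were Lpl (log2 fold change 1.56), which clears plasma triglycerides, and Pnpla2 (0.66), the first enzyme of triglyceride breakdown in droplets, and the lower ones were Pnpla3 (-2.64) and Aadac (-0.63), a deacetylase of the endoplasmic reticulum. Of 15 genes of triglyceride synthesis and lipoprotein assembly, Apoa4 was higher (1.65) and Acsl5 lower (-0.65). Of 20 nuclear receptors and transcription factors, Srebf1, which drives lipogenesis, was lower (-1.63). Of 27 other drug-metabolizing enzymes and transporters, Gstm3 (1.97) and Abcb1a (1.04) were higher and Cyp2c29 lower (-2.10).

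In WAT the lipid hydrolases Lipa (-1.03), Mgll (-0.93) and Abhd12 (-0.62), 3 of 12, were lower, together with 1 of 14 nuclear factors, Thrb (-0.63), 1 of 10 drug enzymes and transporters, Abcb1a (-0.63), and 0 of 13 lipid assembly genes. Over all WAT genes, 14.9% were higher and 9.23% lower DEGs. In muscle, no gene of the 4 lists was a DEG among 11, 11, 11 and 10 tested, and 0% of all genes were. In duodenum 1 of 27 drug enzymes was lower (Ephx1, the microsomal epoxide hydrolase, -3.09), and no DEG was found among 10 lipid hydrolases, 16 lipid assembly genes and 22 nuclear factors. Over all duodenal genes, 0% were higher and 0.00922% lower DEGs.

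In jejunum 10 of 26 drug enzymes and transporters were lower and 0 higher, where 5.13% of all genes were lower and 4.62% higher DEGs. The largest changes were those of Cyp2b10 (-3.35), Ephx1 (-3.12), Cyp3a11 (-2.86) and Ugt2b36 (-1.36). Lower DEGs were also 5 of 22 nuclear factors, among them Nr0b2 (-2.25), Srebf1 (-2.10), Thrb (-1.41) and Ppara (-1.03), and 1 of 10 lipid hydrolases, Lipe (-1.09), while of 16 lipid assembly genes Apoa4 was lower (-1.47) and Lpin1 higher (1.24). In ileum 2 of 10 lipid hydrolases were higher, the monoglyceride hydrolases Mgll (1.08) and Abhd6 (0.98), as were 2 of 26 drug enzymes, Gsta4 (1.79) and Por (1.15), the electron donor of cytochromes P450. Of 16 lipid assembly genes Sar1b was higher (0.59), and of 23 nuclear factors Nr0b2 was higher (1.66) and Nr3c1 lower (-0.73). Over all ileal genes, 1.64% were higher and 4.42% lower DEGs.

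The genes with the profile most like that of the member with the largest change were taken by the root-mean-square distance of centred log2(CPM + 1) over the libraries of a tissue. Only genes outside the members with a mean of at least 10 CPM were searched. Duodenum and muscle, without a DEG among the members, were left out. For Ces2a in liver these were Hsd3b2 (0.205), Sult5a1 (0.268) and Tlcd2 (0.27), over 8 libraries. For Ces2e in WAT they were Aim2 (0.135), Mbd4 (0.14) and Cyb561a3 (0.147), over 8 libraries. For Ces1g in jejunum they were Paqr7 (0.489), Nadk2 (0.55) and Otop3 (0.567), over 7 libraries. For Ces2b in ileum the nearest profiles were much farther away, those of the lipase gene Pnliprp2 (1.02), Mecom (1.09) and Gm9817 (1.1), over 10 libraries. All libraries of a tissue enter each distance, so that these genes share the difference between the groups with the member by construction.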

How the data were processed

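RNA was sequenced after preparation with a strand-specific mRNA kit. The submitters' processing notes name HTSeq and the genome GRCm38, and the aligner, the versions and the annotation are not given in the sources used here. For every tissue the authors deposited a single table, whose columns are libraries and whose values are CPM rounded to 0.1. In 8 columns repeated or malformed lines carry the deposited sum past the range of CPM, so these columns were recorded as a score. With 1 line kept per gene they were used as CPM. In liver 12 malformed lines were left out. Depth is unknown, and no interval that needs counts was computed.

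The RYGB and sham groups of a tissue were compared on log2(CPM + 1) in R 4.3.3 with limma 3.58.1, using empirical Bayes moderation with an intensity trend. Genes averaging 1 CPM or more were tested, and the Benjamini-Hochberg adjustment covered all of them. A DEG had an adjusted p under 0.05 and a fold change of at least 1.5. The members and lists were chosen with earlier results of these data known. Count models could not be used on CPM. The labels do not say whether libraries of 1 group came from separate mice, so p-values measure only the spread between these samples. The named genes were all members, the other carboxylesterases, at most 4 DEGs of each list and tissue with the largest change, the 3 genes nearest in profile, and markers of cell types, of which 1 is not reported here. Exon lengths come from GENCODE M21. Python 3.11.15 with pandas 2.3.3, numpy 2.4.6 and matplotlib 3.10.9 served for tables and figures. The method was also run on simulated data with independent noise in each gene, which held no effects shared by a library, a lane or gut position. Alternatives were a pseudocount of 0.1, no minimum or a mean of at least 10 CPM, median ratio scaling, the replicate number as a block, lane as a covariate, and leaving out each library.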

Additional observations from a re-analysis of the deposited data

Results flagged for a closer look

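Of 56 groups of members with 4 or 5 libraries, 2 had a library far from the others, where chance alone flags about 2.8. Ces2c in sham duodenum was low in replicate 4, with a gap of 0.87 of the range of log2(CPM + 1), and Ces2c in sham jejunum was high in replicate 2, with a gap of 0.899 of the range. Both libraries also stood apart for Ces2b and for Slc40a1.

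Ces2a, Ces2b and Ces2c lay wholly below sham in duodenum and wholly above it in ileum, and Ces2a also lay wholly below sham in liver. The log2 fold change in duodenum minus that in ileum was -5.04 for Ces2a, -7.56 for Ces2b and -3.85 for Ces2c, and for Ces2a the value in liver minus that in ileum was -3.75. These differences between tissues were not tested, because the tables were normalized separately and the labels do not say which libraries share a mouse.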

How the results depend on the processing

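The count of member DEGs in liver (3), muscle (0) and ileum (3) stayed within 1.5 times its value under every alternative run. In WAT it was 0 instead of 1 with a mean of at least 10 CPM, since Ces2e is then not tested. In duodenum it was 2 instead of 0 with a replicate block, and 0 to 3 when a library was left out, 3 being the value without sham replicate 4. Over all duodenal genes the DEGs rose as well, from 0 higher and 1 lower to 182 and 86 with the block and to 532 and 225 without sham replicate 4. In jejunum the count of member DEGs was 0 instead of 1 with a mean of at least 10 CPM, a replicate block or lane as a covariate, and 0 to 1 when a library was left out. The minimum removes Ces1e, and the other causes were not tested beyond the libraries these fits leave out. Deviations of same-numbered libraries correlated from -0.281 to 0.389, and in no tissue were all correlations over 0.1. The labels do not say what equal numbers share, and a common batch or pairing was not tested beyond these correlations. Over all genes the block gave 1048 higher and 188 lower DEGs in liver, where the main fit gave 684 and 152. In muscle it gave 167 and 17 in place of 0 and 0, and in WAT 2042 and 1286 in place of 1996 and 1235. In jejunum it gave 487 and 473 in place of 501 and 557. In ileum it gave 155 and 425 in place of 176 and 474. In duodenum and jejunum sham replicate 4 has no RYGB library of its number, so the block also takes that library out of the estimate, and the log2 fold changes equal those without it. With the block as without that library, Ces1f in duodenum was 0.0346 and Ces2e in jejunum 0.033, both against the sign of the value reported. Likewise the lane covariate in jejunum equals leaving out RYGB replicate 2, which is alone on its lane. A pseudocount of 0.1 moved Ces2e in WAT from 1.69 to 3.33. Median ratio scaling turned Ces1f in WAT to -0.0414, lane turned Ces1d in muscle to 0.0581, and scaling moved the median of all genes from 0.13 to -0.01 in liver, from 0.11 to -0.0013 in WAT and from 0.12 to 0.0033 in duodenum. Lane could not be used in ileum and was single in duodenum. Leaving out a library changed the sign of members that were no DEGs: log2 fold changes ran from -0.24 to 0.11 for Ces1d and from -0.14 to 0.25 for Ces1f in WAT, from -0.19 to 0.10 for Ces1d, -0.22 to 0.17 for Ces1f and -0.12 to 0.83 for Ces1g in duodenum, and from -0.61 to 0.14 for Ces1f, -0.68 to 0.21 for Ces2c and -0.19 to 0.033 for Ces2e in jejunum. Depth is unknown, and rounding to 0.1 CPM limits members under 1 CPM.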
